A study of Homo sapiens with 12 samples.

Results

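The response of L-540 cells to sorafenib alone was described across 7797 genes of 8079 tested. A gene was included when its tested probe was detected, at a detection score above 0.95, on all 3 sorafenib arrays or on all 3 control arrays. L-540 is an established Hodgkin lymphoma line kept in medium with serum, and all arrays carry the RNA of this line. The cells were exposed for 24 hours to 5 µM sorafenib (arrays sorafenib A, B and C), to 100 nM givinostat plus 5 µM sorafenib (the combination, arrays A, B and C), to 100 nM givinostat alone (arrays A, B and C) or to neither drug (arrays control A, B and C). Total RNA from each was read on Illumina bead arrays. What the control medium held in place of a drug is not given in the sources used here. The labels do not say whether arrays of a group came from separate cultures, so p-values cover no more than the array-to-array spread within a group, and that spread may be a technical one.

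Sorafenib is an oral multikinase inhibitor that binds RAF kinases and the receptor tyrosine kinases of the VEGF, PDGF and KIT families. RAF kinases pass signals from RAS to MEK and ERK, which in turn drive early response genes and, in many cell types, cyclin D and proliferation. In several cell types the drug is also known to impair mitochondrial respiration and to bring about the integrated stress response, in which phosphorylated eIF2 slows translation while the transcription factor ATF4 is made. Givinostat inhibits histone deacetylases.

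Of the 7797 genes, 7038 were detected on all 6 arrays of the 2 groups, 395 were included only through the sorafenib arrays and 364 only through the control arrays. A gene of the last 2 kinds had to differ in detection to be there in that way. The median raw intensity was 425.9 to 487.6 on the sorafenib arrays, against 418.1 to 579.3 on the control arrays, and 24.6% to 30.9% of probes were detected on sorafenib arrays, against 25.0% to 30.6% on control arrays. CD30 (TNFRSF8), the surface marker of Hodgkin cells, the actin bundler fascin (FSCN1) and the transferrin receptor (TFRC) were detected on all 6 arrays and the transcription factor IRF4 on 5 of them. CCL17, also listed as a Hodgkin cell marker, was not among the genes tested. None of 5 epithelial markers was detected on any of the 6 arrays. Of 12 T cell markers with a probe, CD2, CD4, CD247 and LAT were detected on all 6 arrays. CD3D, CD3G, CD8A, CD5, LCK and ZAP70 were detected on none. Of 8 B cell markers BLK was detected on all 6 arrays and PAX5, CD79B, BLNK and FCRLA on none. The summed level of the T cell markers on the normalized linear scale was 10100 to 11500 on sorafenib arrays, against 10200 to 12700 on control arrays. Those of the B cell markers were 1540 to 1760, against 1360 to 1620 on control arrays, and those of 9 myeloid markers 3590 to 3970, against 2530 to 3770. Combination B stood apart from the other arrays in brightness (median raw intensity 681.1, 22.4% of probes detected); it takes part in the normalization, the filter, the shared estimate of spread and the block, and without it 236 genes were called for sorafenib minus control in place of 272.

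Sorafenib changed 272 of the 7797 genes at limma's adjusted p under 0.05 (3.49%). There were 157 genes that rose (2.01%) and 115 that fell (1.47%), 53 and 26 of them by 2-fold or more. The median size of the change was 0.82 on the log2 scale over the 272 genes and 0.22 over all 7797, whose median change was 0.00011. For all 272 genes the 3 sorafenib values lay on one side of the 3 control values and the 3 differences between arrays of the same letter had the same sign, as the choice by p favours. Of all 7797 genes 13.7% lay wholly above control and 12.6% wholly below, and 25.2% and 23.7% had 3 same-letter differences above 0 and below 0. Values given after a gene are log2 differences of normalized intensity, sorafenib minus control, ± SE with n = 3 arrays per group and limma's adjusted p over all 8079 genes. In bulk RNA a lower level can reflect fewer cells with the transcript or less of it per cell, and these cannot be told apart.

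Samples of the same letter deviated together in the control, givinostat and sorafenib groups, and with the letter as a block 704 genes were called (9.03%), 393 higher (5.04%) and 311 lower (3.99%), with all 272 among them. Combination B and C did not follow their letters: B deviated with the C arrays of the other groups, and C more with their B arrays. Without the 3 combination arrays the block called 710. In the 12 fits that left out 1 array each, 56 of the 272 calls held every time and 22 never. Among the genes named below, the calls of BCL2L13, CCNA2, CCNF, DNAJB1, GPX1 and PLOD2 held in 0 of the 12 fits, and those of ATP5MF, BNIP3L, CASP1, GPER1, HK1, LMTK2, MTHFD1, POLD3, PPP1R11 and SLC35B2 in 1. The number called was lowest without control C (69) and without sorafenib C (71), and no called gene changed its sign in these fits. Of 80 further detected probes for 67 of the called genes, 74 had the sign of the tested probe.

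**Figure D1:**
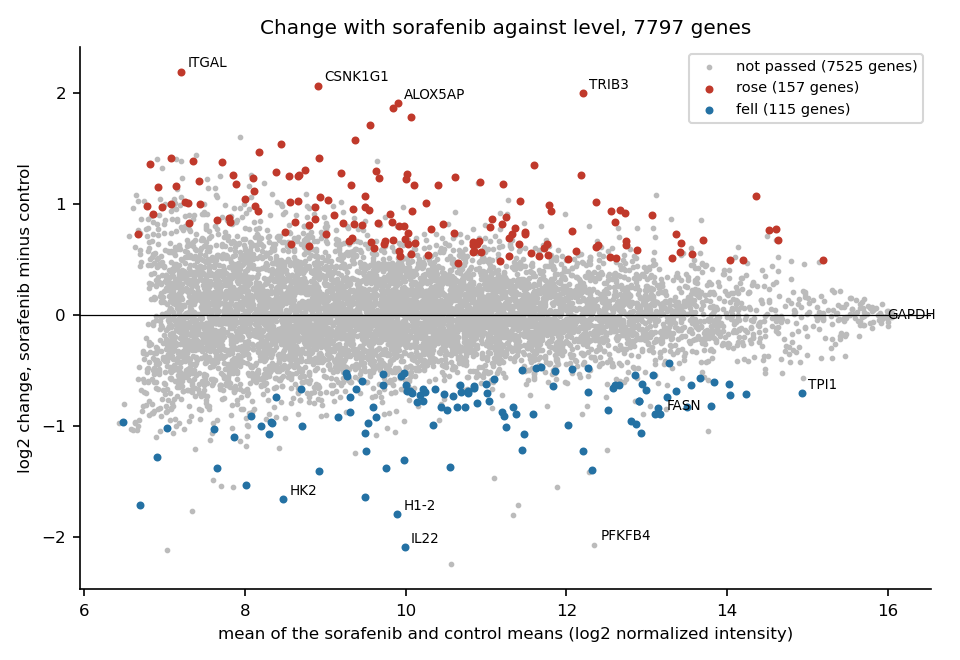
Log2 change (sorafenib minus control) of each of the 7797 genes against the mean of its 2 group means, both on the log2 scale of normalized intensity. The 157 genes that rose and the 115 that fell are coloured and the others are grey; calls occur from the dimmest to nearly the brightest probes, and GAPDH at the bright end did not pass.

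The largest fitted rise was that of ITGAL, which encodes an integrin subunit (CD11a) of leukocyte adhesion. Its log2 intensities were 8.31, 8.27 and 8.34 on the sorafenib arrays, against 5.84, 6.53 and 5.98 on the control arrays. The 2 groups did not overlap, and no control array detected the probe, so that ITGAL was at least 2.86-fold higher with sorafenib (fitted 2.19 ± 0.18, adjusted p = 0.000431). Under the alternative settings its fitted difference ran from 0.65 to 2.40, so the bound holds for the main processing only. Among genes detected on all 6 arrays the largest rise was that of CSNK1G1. This casein kinase 1 gene read 9.48, 10.02 and 10.31 in sorafenib cells and 7.84, 8.10 and 7.68 in control cells, with no overlap (2.06 ± 0.21, 4.18-fold, adjusted p = 0.00131). Its 2 other detected probes differed by less, 0.65 and 0.40. ALOX5AP, which encodes the membrane protein FLAP that hands arachidonic acid to 5-lipoxygenase for leukotriene synthesis, read 10.79, 10.87 and 10.91 with sorafenib and 9.10, 8.58 and 9.17 in control (1.91 ± 0.17, 3.75-fold, adjusted p = 0.000652). The 3 sorafenib arrays lay close together and well above the highest control. CDC14B, a phosphatase that opposes cyclin-dependent kinases, had the lowest adjusted p of these genes (1.86 ± 0.13, 3.64-fold, adjusted p = 0.000195), and its other probe differed by 1.69. The endoplasmic reticulum autophagy receptor CCPG1 rose by 1.78 ± 0.23 (3.44-fold, adjusted p = 0.00416).

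On the other side, IL22, the cytokine interleukin-22, read 9.21, 8.72 and 8.90 with sorafenib and 11.58, 10.82 and 10.70 in control. The highest sorafenib array stayed below the lowest control array, a fall by 2.09 ± 0.24 (4.26-fold lower, adjusted p = 0.00323), and a second IL22 probe differed by -1.73. The linker histone gene H1-2 fell by 1.79 ± 0.24 (adjusted p = 0.00488), with 8.88, 9.10 and 9.01 on the sorafenib arrays and 11.40, 10.39 and 10.58 on the control arrays. HLX, a homeobox factor of lymphoid cells, fell by 1.64 ± 0.34 (adjusted p = 0.0327) and SLCO4A1, an organic anion transporter, by 1.41 ± 0.28 (adjusted p = 0.0292). The calls of ITGAL, CSNK1G1, ALOX5AP, CDC14B, CCPG1, IL22 and H1-2 held in all 12 fits without 1 array, while those of HLX and SLCO4A1 were lost in some.

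**Figure D2:**
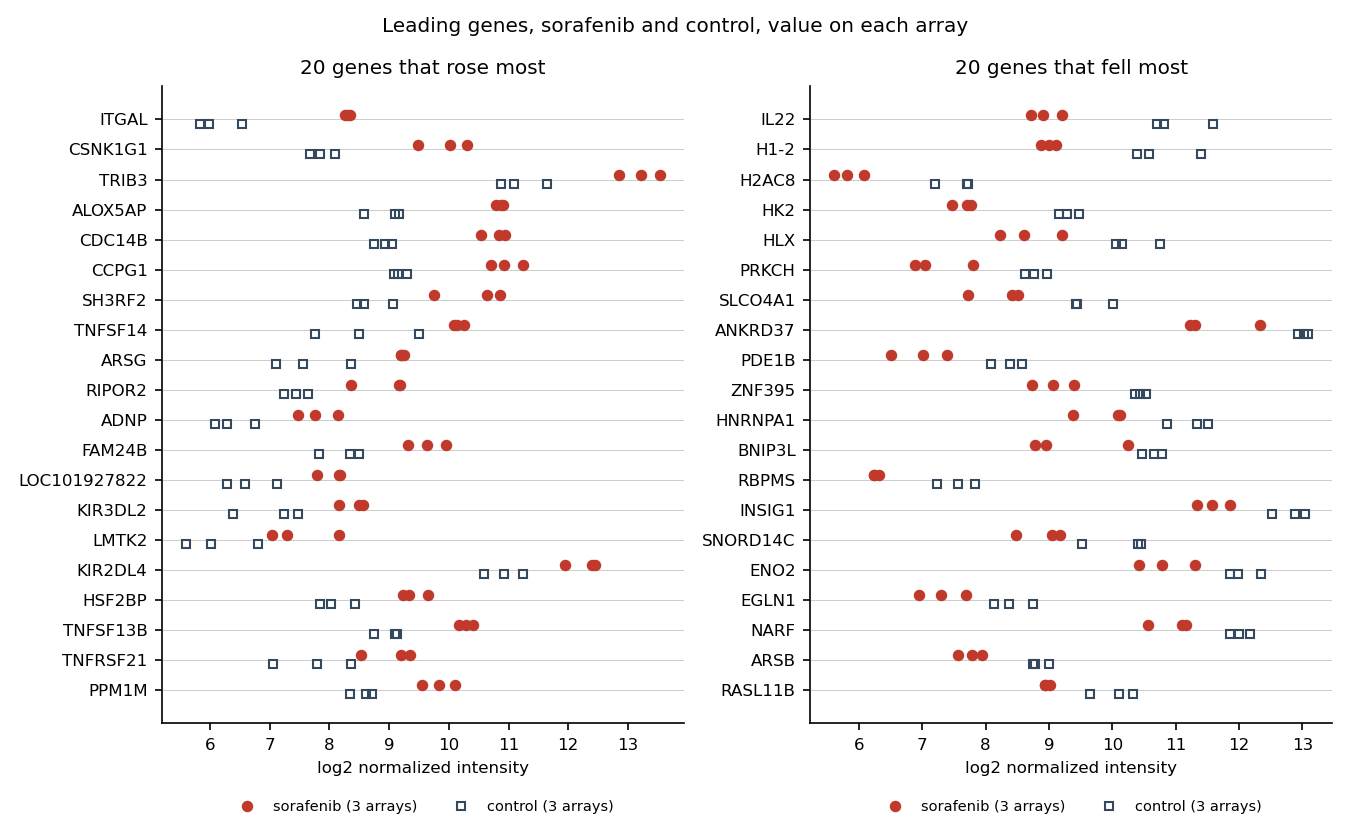
Log2 normalized intensity on each array for the 20 genes with the largest rise (left) and the 20 with the largest fall (right) among called genes whose groups do not overlap; filled circles are the 3 sorafenib arrays and open squares the 3 control arrays of each gene. In each row the sorafenib values lie wholly to one side of the control values, as the choice of genes requires; the order is by fitted change, and the control values of ITGAL, at the top on the left, lie below detection.

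The first question about a kinase inhibitor is what its own targets and the pathway below them did at the RNA level. Of 18 kinases that sorafenib is known to inhibit, 15 had a probe and 4 were among the 7797 genes. The probes for KDR, FLT1, PDGFRB, KIT and FGFR1 were detected on none of the 6 arrays. ARAF, the RAF kinase that was measured, read 10.97, 10.78 and 11.09 with sorafenib and 10.98, 10.84 and 11.12 in control, which overlap (-0.03 ± 0.14, 95% interval -0.36 to 0.29). The colony-stimulating factor receptor CSF1R differed by 0.42 ± 0.18 (adjusted p = 0.228) and the Eph receptor EPHB6, detected on 1 control array, by 1.08 ± 0.40 (adjusted p = 0.171). The collagen receptor DDR2, detected on all 3 sorafenib arrays and no control array, was at least 1.597-fold higher without passing (adjusted p = 0.102, and 0.013 with the letter as a block).

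None of 14 measured components of the RAS-RAF-MEK-ERK cascade passed the test in either direction (median -0.04), nor did any of 9 ERK feedback and early response genes (median -0.12). The ERK phosphatase gene DUSP5 differed by 0.08 ± 0.35 (95% interval -0.74 to 0.89) and MYC by -0.07 ± 0.14 (95% interval -0.41 to 0.26). The block by letter called 3 of the 9 feedback genes, 1 higher and 2 lower. Named as the extremes of the 9, IER3 was the lowest (-1.41) and PHLDA1 the highest (0.46). In the 9 measured AP-1 and stress-kinase factors none passed. JUNB, an AP-1 subunit abundant in Hodgkin cells, read 13.22, 12.10 and 12.20 with sorafenib and 13.90, 13.16 and 13.15 in control, a difference of -0.90 ± 0.49 (adjusted p = 0.344, and 0.016 with the letter as a block). Array A was the highest of each group.

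Cytokine signalling was read next at the level of STAT target genes, and no test compared this list with the ERK lists. Of 19 measured targets and feedback inhibitors of STAT factors, 3 fell, none rose, and the median was -0.56. Over the 17 of them detected on all 6 arrays the median was smaller in size, -0.28. Under the alternative settings the list's median ran from -0.64 to -0.10. With the letter as a block 5 of the 19 were called lower and 1 higher. CISH, an inhibitor of STAT5 signalling that STAT5 itself induces, read 10.26, 9.75 and 9.54 in sorafenib cells and 11.10, 10.81 and 10.62 in control cells (-0.99 ± 0.24, adjusted p = 0.0494). The survival kinases PIM1 and PIM2 fell by 0.98 ± 0.21 (adjusted p = 0.0374) and 0.77 ± 0.16 (adjusted p = 0.0335). Like every called gene, these 3 did not overlap between the groups. BCL2L1 (0.13 ± 0.24), MCL1 (-0.08 ± 0.31) and CCND2 (0.04 ± 0.14), which STAT factors also drive, did not pass. The falls numbered 0 to 3 when 1 array was left out, and all 3 were lost without control A, control C, sorafenib B, sorafenib C or combination C. Among 17 receptors, kinases and factors of the JAK-STAT pathway the change that passed was a rise of STAT4, the factor of interleukin-12 signalling (1.17 ± 0.17, 2.25-fold, adjusted p = 0.00597). It read 10.79, 11.19 and 10.99 with sorafenib and 9.59, 9.82 and 10.05 in control. STAT3 differed by -0.48 ± 0.22 (adjusted p = 0.259) and STAT6 by -0.03 ± 0.14.

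The promoter of CISH is shown because CISH was the 1 fallen gene of this list whose window held the STAT letters TTCNNNGAA. RefSeq windows from 250 bases before to 50 after each gene's start (GRCh38) were available for 6465 of the 7797 genes, and 8 motifs were searched on both strands. The stretch around the 4 matches, chr3:50611863-50612024 on the minus strand, is printed 5′ to 3′ with the matches in capitals.
CISH: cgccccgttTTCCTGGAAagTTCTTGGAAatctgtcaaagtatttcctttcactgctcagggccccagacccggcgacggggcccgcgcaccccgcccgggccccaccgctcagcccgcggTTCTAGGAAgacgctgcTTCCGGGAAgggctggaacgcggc
Of 14 listed STAT targets with a window, 5 held a match (35.7%), against 5.99% of the described genes and 7.88% of all 27305 windows of the table. CISH was the fallen gene among those 5, and 2 of the 9 without a match fell.

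Other signalling lists differed in their counts. None of 20 NF-kB subunits, inhibitors and targets passed (median 0.09), and none of 20 genes of the PI3K-AKT-mTOR pathway (median -0.16). In the family of protein kinase C and diacylglycerol kinases 2 of 8 fell. PRKCH, a kinase of lymphocyte activation, read 7.81, 6.88 and 7.04 with sorafenib and 8.97, 8.76 and 8.62 in control (-1.54 ± 0.26, adjusted p = 0.013). PRKCQ, the isoform that acts at the T cell synapse, fell by 0.78 ± 0.18 (adjusted p = 0.0422). PDE1B, a calcium-dependent phosphodiesterase of cyclic nucleotides detected on 2 of the 3 sorafenib arrays, fell by 1.38 ± 0.22 (adjusted p = 0.00907), 1 of 14 cyclic nucleotide genes to pass. Among 53 phosphatase genes 5 rose and none fell (median 0.18). They were PPM1M (1.27 ± 0.18, adjusted p = 0.006), the stress phosphatase regulator PPP1R15A described next, DUSP12 (0.93 ± 0.18), PTPN22, a brake on antigen receptor signalling (0.86 ± 0.19), and PPP1R11 (0.51 ± 0.12).

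Of 13 measured effectors and regulators of ATF4 and its partner CHOP, 3 rose, none fell and 10 did not pass. The 13 include ATF4 itself and DDIT3, which encodes CHOP. The difference was positive in 12 of the 13 and the median was 0.60. TRIB3, a pseudokinase that binds AKT and feeds back on ATF4, read 12.86, 13.22 and 13.54 with sorafenib and 11.65, 11.08 and 10.88 in control. The lowest sorafenib array exceeded the highest control array by more than 1 log2 unit, and the rise was 2.00 ± 0.26 (4.00-fold, adjusted p = 0.00416). PPP1R15A, the phosphatase subunit known as GADD34 that removes phosphate from eIF2, rose by 1.02 ± 0.22 (2.02-fold, adjusted p = 0.0358). It read 13.04, 12.47 and 13.13 with sorafenib and 12.18, 11.55 and 11.86 in control, with no overlap, as for every called gene. CEBPB, a leucine zipper factor that pairs with ATF4, rose by 0.76 ± 0.18 (adjusted p = 0.0449).

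The 2 factors that give the list its name did not pass. DDIT3, which encodes CHOP, read 11.40, 11.45 and 11.64 in sorafenib cells and 10.90, 9.92 and 10.11 in control cells, with no overlap (1.19 ± 0.32, adjusted p = 0.0696, and 0.034 with the letter as a block). ATF4 itself, which is controlled largely in translation, differed by 0.56 ± 0.21 (adjusted p = 0.177). CEBPG (0.68 ± 0.31), ATF3 (0.55 ± 0.24), SESN2 (0.60 ± 0.45), KLHL24 (0.60 ± 0.63, detected on 2 control arrays), TNFRSF10B (0.48 ± 0.26), ATF5 (0.30 ± 0.34) and VEGFA (0.04 ± 0.22) did not pass. DDIT4, an inhibitor of mTOR that hypoxia induces as well, was the member with a negative difference (-1.22 ± 0.51, adjusted p = 0.213, and 0.0017 with the letter as a block). With the letter as a block 5 members were called higher and 1 lower. Between 1 and 4 members rose when 1 array was left out, and TRIB3 rose in all 12 of those fits.

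Genes that act around this pathway were tested as lists of their own. OMA1, a mitochondrial protease whose cleavage of DELE1 is known to start the integrated stress response, rose by 0.80 ± 0.14 (adjusted p = 0.0151), with 10.29, 10.46 and 10.42 on sorafenib arrays and 9.36, 9.65 and 9.75 on control arrays. It was the member to pass among 15 kinases and factors that signal to eIF2 (median 0.03). Of 18 cytosolic aminoacyl-tRNA synthetases, the enzymes that charge tRNAs, 1 rose: GARS1, for glycine, by 0.68 ± 0.15 (adjusted p = 0.0374). The median of that list was 0.22 with 11 of 18 positive, and 4 were called higher with the letter as a block. None of 13 mitochondrial aminoacyl-tRNA synthetases passed (median -0.03). In the synthesis of serine, glycine, asparagine, proline and cysteine GOT1, the cytosolic aspartate aminotransferase, rose by 1.02 ± 0.15 (2.03-fold, adjusted p = 0.00597), with 11.84, 11.99 and 11.96 in sorafenib cells and 11.12, 10.63 and 10.98 in control cells. MTHFD1, a folate enzyme, fell by 0.67 ± 0.15 (adjusted p = 0.0444), and the other 13 of 15 did not pass (median of the list 0.43). None of 14 amino acid transporters passed (median 0.24). GTPBP2, a GTPase that rescues stalled ribosomes in mouse, rose by 1.25 ± 0.22 (2.39-fold, adjusted p = 0.0148).

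Windows are shown for 4 genes of these lists that hold the letters TGATGNAAN of the C/EBP-ATF element, to which ATF4 binds with a C/EBP partner. Each is given 5′ to 3′ on the gene's strand with the match, which may read on either strand, in capitals. The windows are chr10:99430800-99430838, chr16:70289671-70289709, chr9:92293698-92293726 and chr7:97872453-97872491, all on the minus strand of GRCh38.
GOT1: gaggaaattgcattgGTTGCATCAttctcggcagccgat
AARS1: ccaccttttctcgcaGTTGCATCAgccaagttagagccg
IARS1: ccgcattttcagcgcGTTGCATCAcctcc
ASNS: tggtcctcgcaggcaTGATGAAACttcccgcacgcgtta
A match was present in 5 of 15 synthetase windows (33.3%), 4 of 11 windows of the amino acid list (36.4%) and 1 of 11 windows of the ATF4-CHOP list (9.09%), against 1.78% of the described genes and 3.67% of all windows. GOT1 rose, while AARS1 (0.71, adjusted p = 0.11), IARS1 (0.47, adjusted p = 0.072) and ASNS (0.67, adjusted p = 0.14) did not pass. GARS1 rose and held no match in its window. The 4 genes shown for their sequence were chosen after their values were seen.

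Glycolysis was the list with the most falls. Of 21 measured glycolytic enzymes and glucose transporters 10 fell, none rose, 20 had a negative difference and the median was -0.61. Among the 10 falls, that of HK2 was the largest with the tested probes and the main processing. HK2, the inducible hexokinase, read 7.46, 7.76 and 7.70 with sorafenib and 9.28, 9.47 and 9.15 in control (-1.66 ± 0.21, 3.16-fold lower, adjusted p = 0.00377). A second HK2 probe differed by -0.96, less than a second PGK1 probe (-1.25). Under the alternative settings the fitted difference of HK2 ran from -1.74 to -0.71, so its size and rank depend on probe and processing. The hexokinase HK1 had the smallest of the 10 falls (-0.61). Like every called gene, HK2 and PGK1 did not overlap between groups. PGK1, which makes the first ATP of the pathway, read 12.36, 12.54 and 12.27 with sorafenib and 13.37, 13.54 and 13.47 in control (-1.07 ± 0.14, 2.09-fold lower, adjusted p = 0.00416).

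The other falls ran along the pathway. GPI, which isomerises glucose 6-phosphate, fell by 0.82 ± 0.13 (adjusted p = 0.00812). PFKFB3, which makes the activator of phosphofructokinase, fell by 0.83 ± 0.16 (adjusted p = 0.028), the aldolase ALDOA by 0.71 ± 0.16 (adjusted p = 0.0405) and the triose isomerase TPI1 by 0.70 ± 0.11 (adjusted p = 0.00989). The mutase PGAM1 fell by 0.83 ± 0.13 (adjusted p = 0.00817), the enolase ENO2 by 1.22 ± 0.29 (adjusted p = 0.049), pyruvate kinase PKM by 0.84 ± 0.18 (adjusted p = 0.0374) and HK1 by 0.61 ± 0.15 (adjusted p = 0.0498). A near-identical copy of PGAM1, the retrogene PGAM4, was called with it (-0.86 ± 0.15), and their probes may share RNA.

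PFKFB4, a second enzyme of the PFKFB family, had the largest difference of the list without passing, with 12.54, 10.53 and 10.87 on sorafenib arrays and 13.62, 13.26 and 13.27 on control arrays (-2.07 ± 0.53, adjusted p = 0.0609, and 0.0071 with the letter as a block). Sorafenib A was the array nearest to control. LDHA (-0.57 ± 0.16, adjusted p = 0.0792), PFKM (-0.44 ± 0.18), the glucose transporters SLC2A3 (-0.39 ± 0.22) and SLC2A1 (-0.36 ± 0.16), PDK3 (-0.37 ± 0.26) and PFKL (-0.18 ± 0.21) did not pass. GAPDH (-0.08, 95% interval -0.31 to 0.15), ENO1 (-0.07, 95% interval -0.32 to 0.18), ALDOC (-0.06 ± 0.21) and LDHB (0.22 ± 0.20) were close to no difference. The 2 probes at the top of the intensity scale, GAPDH and ENO1, read 15.7 or more on every array of both groups. Whether a change could be read at that level was not tested. The block by letter called 12 members lower. Between 5 and 10 fell when 1 array was left out, fewest without control B, control C or sorafenib B, and HK2, PGK1, GPI, PGAM1 and TPI1 fell in all 12 of those fits.

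**Figure D3:**
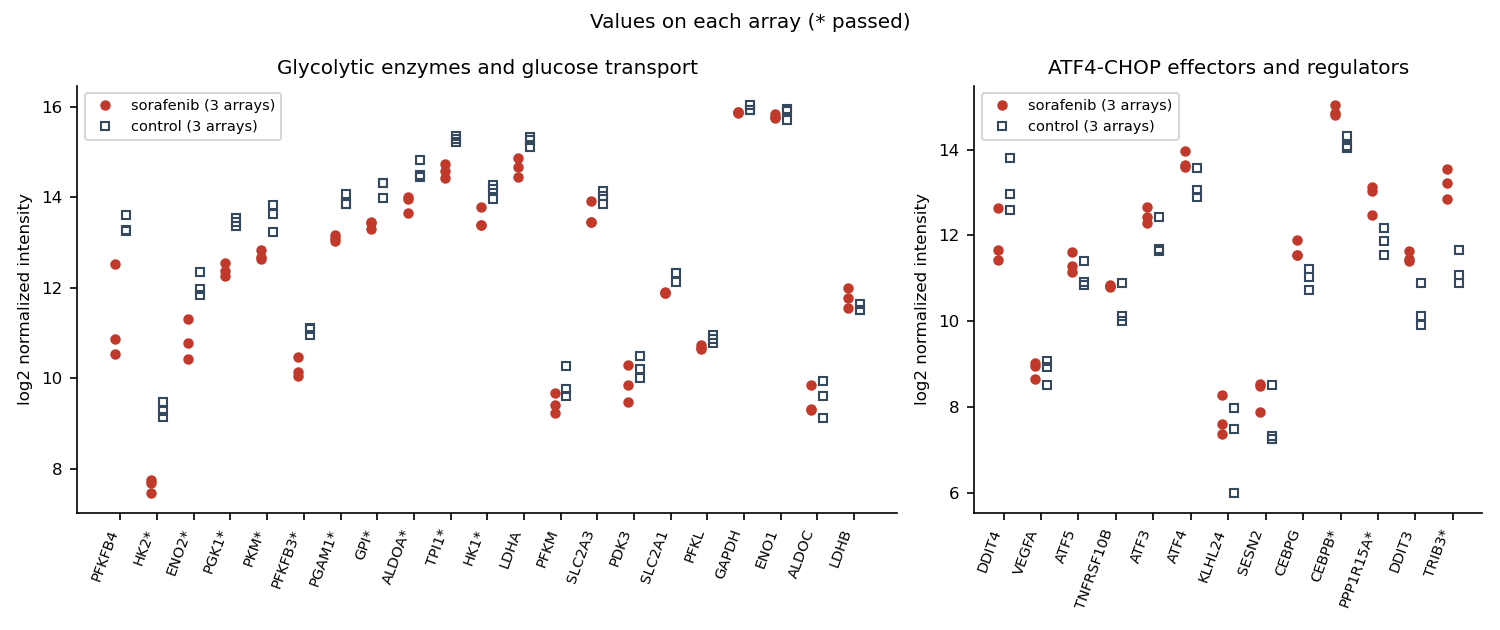
Log2 normalized intensity on each array for the 21 measured glycolytic genes (left) and the 13 measured ATF4-CHOP genes (right), ordered by the change from most negative to most positive; filled circles are the 3 sorafenib arrays and open squares, to their right, the 3 control arrays, and an asterisk marks a gene that passed. HK2 and PGK1 lie wholly below control with sorafenib, GAPDH and ENO1 overlap, and TRIB3 lies wholly above.

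Part of the hypoxia-inducible genes outside glycolysis fell. HIF-1 is a factor whose alpha subunit is destroyed in the presence of oxygen after hydroxylation by EGLN enzymes, and it drives glycolytic genes and genes of mitophagy and feedback. Of 25 measured regulators and targets 7 fell, none rose and the median was -0.45. ANKRD37 read 12.33, 11.22 and 11.31 with sorafenib and 13.03, 12.93 and 13.09 in control (-1.40 ± 0.30, adjusted p = 0.0374). ZNF395, a zinc finger factor that hypoxia induces, fell by 1.38 ± 0.19 (adjusted p = 0.00488) and did so in all 12 fits without 1 array.

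BNIP3L, a mitophagy receptor, fell by 1.31 ± 0.31 (adjusted p = 0.049), with sorafenib A (10.25) close to the lowest control value (10.46). EGLN1, itself a HIF target, was detected on 2 of the 3 sorafenib arrays and fell by 1.10 ± 0.22 (adjusted p = 0.028), the muscle-type glycogen synthase GYS1 by 0.97 ± 0.21 (adjusted p = 0.0374) and the lysyl hydroxylase PLOD2 by 0.64 (adjusted p = 0.0444), a call lost in every fit without 1 array. One of 2 other PLOD2 probes had the opposite sign (0.18). PLOD2 and PGAM4 are named after their values were seen. INSIG2 also fell and is described with the sterol genes. HIF1A (0.22 ± 0.43, detected on 2 control arrays) and VEGFA did not pass. The falls numbered 1 to 5 when 1 array was left out, with 1 without control A, control C or sorafenib B, and 10 with the letter as a block.

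The letters ACGTG, the core to which HIF-1 binds, were found in 9 of 20 glycolytic windows (45%) and 12 of 18 windows of the hypoxia list (66.7%), against 28.5% of the described genes and 21.6% of all windows. They also occur inside TCACGTGA, the CLEAR element. Windows of 5 genes that fell are shown, with matches on either strand in capitals, as chr2:74833883-74834098, chrX:78104031-78104084, chr12:6914447-6914481 and chr4:185396664-185396717 on the plus strand and chr1:231422288-231422315 on the minus strand of GRCh38.
HK2: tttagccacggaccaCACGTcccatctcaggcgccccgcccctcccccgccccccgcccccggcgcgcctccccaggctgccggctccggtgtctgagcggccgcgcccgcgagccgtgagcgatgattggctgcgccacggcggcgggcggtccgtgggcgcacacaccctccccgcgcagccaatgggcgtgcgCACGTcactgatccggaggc
PGK1: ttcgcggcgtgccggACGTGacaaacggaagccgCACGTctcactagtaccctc
ENO2: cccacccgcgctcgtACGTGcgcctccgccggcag
ANKRD37: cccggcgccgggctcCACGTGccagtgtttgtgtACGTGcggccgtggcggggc
EGLN1: gcggggccgtggtgtACGTGcagagcgc
Among glycolytic genes 5 of 9 with the letters fell and 5 of 11 without them, and in the hypoxia list 4 of 12 with them and 1 of 6 without. The core is short and common, and its presence in a window is only a match of letters.

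Sterol synthesis followed in the same direction with fewer calls. Of 21 genes of cholesterol synthesis and uptake 18 had a negative difference, 3 fell and the median was -0.55. INSIG1, which holds the sterol sensor SCAP in the endoplasmic reticulum and is itself a target of SREBP factors, read 11.85, 11.58 and 11.34 in sorafenib cells and 12.88, 12.53 and 13.04 in control cells (-1.23 ± 0.19, 2.35-fold lower, adjusted p = 0.00907). Its relative INSIG2 fell by 1.01 ± 0.24 (adjusted p = 0.0463) and DHCR7, the last reductase of the pathway, by 0.88 ± 0.19 (adjusted p = 0.0358). These 3, like every called gene, did not overlap between the groups.

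The enzymes MVD (-0.72 ± 0.27), MVK (-0.64 ± 0.34), FDPS (-0.63 ± 0.20), ACAT2 (-0.62 ± 0.20), MSMO1 (-0.61 ± 0.43), HMGCS1 (-0.60 ± 0.28), EBP (-0.58 ± 0.16) and NSDHL (-0.55 ± 0.15) did not pass, nor did PMVK, SREBF1, LSS, HSD17B7, SQLE and TM7SF2, between -0.35 and -0.10. NPC2 (-0.05), SCAP (0.04) and NPC1 (0.17) were near 0. MYLIP, the ligase that destroys the LDL receptor, had the highest value (0.66 ± 0.17, adjusted p = 0.0579, and 0.043 with the letter as a block). With the letter as a block 7 were called lower and 1 higher, and between 1 and 3 fell when 1 array was left out, INSIG1 in all 12 fits. The sterol regulatory element TCACNCCAC was found in 0 of 19 windows of this list and in 1.05% of the described genes. FASN, fatty acid synthase, was the 1 of 24 fatty acid and lipid genes to pass. It read 12.74, 12.70 and 12.73 with sorafenib and 13.52, 13.65 and 13.68 in control (-0.89 ± 0.11, 1.86-fold lower, adjusted p = 0.00323).

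**Figure D4:**
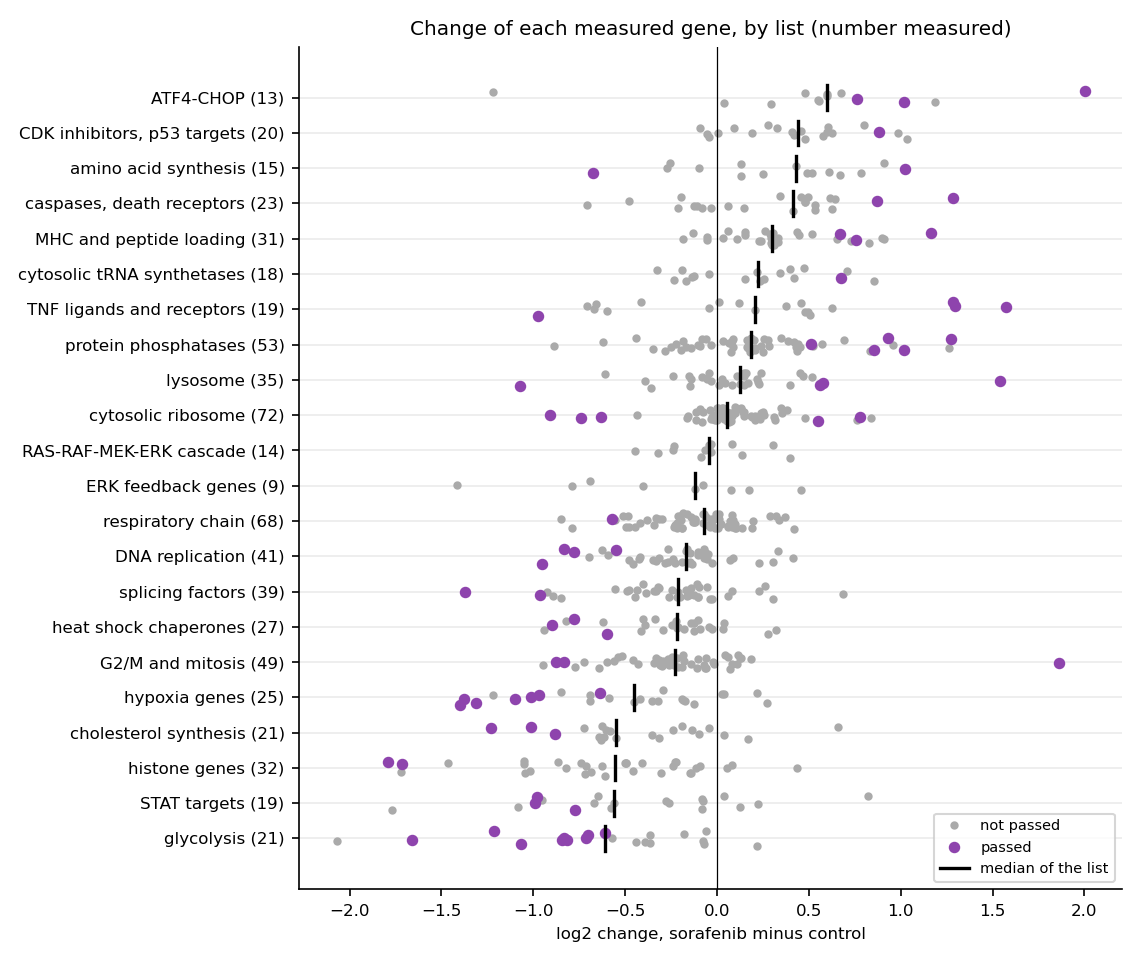
Log2 change (sorafenib minus control) of each measured member of 22 of the gene lists, with the number measured in brackets; large points passed, small points did not, and the bar is the list's median. ATF4-CHOP genes have the highest median (0.60) and glycolytic genes the lowest (-0.61) among the lists drawn; some genes belong to more than 1 list, and the vertical scatter within a row carries no value.

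Proliferation genes were lower in part. Among 32 measured histone genes 29 had a negative difference and 2 fell, with a median of -0.56. Over the 24 of them detected on all 6 arrays the median was -0.48. Under the alternative settings the list's median ran from -0.63 to -0.21. Besides H1-2 the gene that fell was H2AC8, a replication-dependent H2A gene detected on all control arrays and no sorafenib array. It was at least 1.68-fold lower (adjusted p = 0.0463). Histone genes are near-identical copies, and which copy a probe reads is uncertain. In the fit with the letter as a block 9 were called lower. With 1 array left out the number of falls in DNA replication and licensing ran from 0 to 3. In the fit of all arrays 4 of 41 fell (9.76%, against 1.47% of all described genes) and none rose (median -0.17). They were FEN1, the flap nuclease of Okazaki fragments (-0.95 ± 0.21, adjusted p = 0.0373), CDT1, which loads the MCM helicase (-0.83 ± 0.15, adjusted p = 0.0188), the helicase subunit MCM4 (-0.78 ± 0.16, adjusted p = 0.0349) and POLD3 (-0.55 ± 0.13, adjusted p = 0.0495). RRM2, the ribonucleotide reductase subunit of S phase, fell by 0.99 ± 0.20 (adjusted p = 0.0289) and thymidine kinase TK1 by 0.63 ± 0.14 (adjusted p = 0.0393).

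Among 28 cyclins, CDKs and E2F factors 3 fell. CDC25A, the phosphatase that activates CDK2, read 10.10, 10.19 and 9.98 with sorafenib and 10.89, 10.97 and 10.99 in control (-0.86 ± 0.11, adjusted p = 0.00418), and CCNA2 and CCNF fell by 0.49 ± 0.11 and 0.50 ± 0.12. The calls of CCNA2 and CCNF were lost in every fit without 1 array, which left 1 fall. The D-type cyclins CCND2 (0.04 ± 0.14) and CCND3 (-0.27 ± 0.14) did not pass. Of 49 genes of G2/M and mitosis 39 were negative (median -0.23), 2 fell (4.08%) and 1 rose. The falls of this list numbered 0 to 2 when 1 array was left out. The cohesin protease ESPL1 fell by 0.88 ± 0.20 (adjusted p = 0.0437) and INCENP, a subunit of the Aurora B complex, by 0.83 ± 0.14 (adjusted p = 0.01), and the rise was that of CDC14B, while 7 were called lower with the letter as a block. The CHR element TTTGAA was found in 30 of 42 windows of that list (71.4%) against 9.78% of the described genes, and the E2F letters TTTCGCGC or TTTGGCGC in 8 of 35 replication windows (22.9%) against 2.51%. In G2/M and mitosis 2 of the 30 genes with the CHR letters fell and 0 of the 12 without. Among replication genes 0 of the 8 with the E2F letters fell and 2 of the 27 without.

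Of 20 CDK inhibitors and p53 targets 17 had a positive difference, with a median of 0.44, and 1 rose. BTG1, which slows proliferation of lymphocytes, read 11.46, 11.76 and 11.84 in sorafenib cells and 11.10, 10.76 and 10.57 in control cells (0.88 ± 0.18, 1.84-fold, adjusted p = 0.0322). CDKN1A (p21) differed by 0.41 ± 0.20 (adjusted p = 0.297) and CDKN1B (p27) by 0.09 ± 0.11 (95% interval -0.17 to 0.36). With the letter as a block 6 members were called higher.

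Chaperones of the cytosol had mostly negative differences. Of 27 measured, 23 had a negative difference (median -0.22) and 3 fell. STIP1, which links HSP70 to HSP90, read 12.54, 12.68 and 12.76 with sorafenib and 13.45, 13.55 and 13.67 in control (-0.90 ± 0.12, adjusted p = 0.00488). The HSP90 co-chaperone FKBP4 fell by 0.78 ± 0.17 (adjusted p = 0.0372) and the HSP40 gene DNAJB1 by 0.60 ± 0.15 (adjusted p = 0.0498), a call lost in every fit without 1 array. The heat shock element was found in 3 of 22 windows (13.6%) against 0.309% of the described genes, and in none of the 2 fallen genes that had a window. In the endoplasmic reticulum 2 of 26 folding and unfolded protein response genes fell and 1 rose (median -0.22). MANF, a secreted factor of that response, fell by 0.68 ± 0.11 (adjusted p = 0.0105), the disulfide isomerase P4HB by 0.54 ± 0.11 (adjusted p = 0.0343), and SYVN1, the ubiquitin ligase of ER-associated degradation, rose by 0.74 ± 0.16 (adjusted p = 0.0358). GPX1, glutathione peroxidase, was the 1 of 24 antioxidant genes to pass (0.52 ± 0.12, adjusted p = 0.049), and its call too was lost in every such fit.

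Degradation genes passed in small numbers and in both directions, beside 2.01% higher and 1.47% lower over all described genes. Of 31 autophagy genes 2 rose (6.45%), CCPG1 and the conjugation factor ATG12 (0.53 ± 0.12, adjusted p = 0.0435). BNIP3L fell (3.23%), and the median of the list was -0.03. The call of ATG12 held in 2 of the 12 fits without 1 array and that of BNIP3L in 1. In the lysosome list 3 of 35 rose (8.57%) and 1 fell (2.86%, median of the list 0.13), and the 2 sulfatases went in opposite directions. ARSG read 9.26, 9.19 and 9.20 with sorafenib and 8.37, 7.56 and 7.10 in control (1.54 ± 0.25, 2.91-fold, adjusted p = 0.0109). ARSB, which degrades dermatan sulfate, read 7.57, 7.95 and 7.79 with sorafenib, all below the lowest control array at 8.75 (-1.07 ± 0.14, 2.10-fold lower, adjusted p = 0.00416). The peptidase TPP1 rose by 0.58 ± 0.10 (adjusted p = 0.0144) and the lysosomal channel MCOLN2 by 0.56 ± 0.13 (adjusted p = 0.0409). The CLEAR element TCACGTGA, which TFEB binds, lay in 5 of 26 windows (19.2%) against 2.27%, and in none of the 3 changed members that had a window.

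Death genes gave few calls. Of 23 caspases, IAPs and death receptors 2 rose (8.7%, against 2.01% of all described genes), with a median of 0.41. TNFRSF21 (death receptor 6) read 8.53, 9.20 and 9.34 in sorafenib cells and 7.06, 8.37 and 7.80 in control cells (1.28 ± 0.31, adjusted p = 0.0498), and CASP1, the inflammatory caspase, rose by 0.87 ± 0.20 (adjusted p = 0.0449). With the letter as a block 5 were called higher. The rises numbered 0 to 1 when 1 array was left out. The call of TNFRSF21 held in 2 of those 12 fits and that of CASP1 in 1. Without background correction the CASP1 call was lost. In the BCL2 family of 10 measured genes BCL2L13, a mitochondrial member, rose by 0.53 ± 0.13 (adjusted p = 0.049) and BNIP3L fell. The call of BCL2L13 was lost in every fit without 1 array. MCL1, the survival factor that sorafenib is known to lower in other cells, read 9.52, 9.86 and 9.79 with sorafenib and 9.76, 9.94 and 9.72 in control, which overlap, and its 95% interval was -0.80 to 0.64.

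Few genes of surface and secreted molecules of the Hodgkin cell passed, and they went in both directions. Over all 7797 described genes 2.01% rose and 1.47% fell. TNFRSF8, the CD30 gene, read 9.31, 8.87 and 8.95 with sorafenib and 10.27, 9.73 and 10.05 in control (-0.98 ± 0.20, 1.97-fold lower, adjusted p = 0.0316). As for every called gene, its groups did not overlap. It was the 1 of 17 Hodgkin markers to pass (median -0.19), and 4 were called lower and 1 higher with the letter as a block. In the TNF family of 19 measured genes TNFRSF8 fell and 3 others rose (median 0.21). TNFSF13B, the B cell survival factor BAFF, read 10.29, 10.17 and 10.40 in sorafenib cells and 8.74, 9.09 and 9.13 in control cells (1.29 ± 0.15, 2.45-fold, adjusted p = 0.00323). TNFSF14 (LIGHT) rose by 1.57 ± 0.35 (adjusted p = 0.0409), with control values spread from 7.76 to 9.51, and its 2 other probes differed by 2.26 and 0.72. The third was TNFRSF21.

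Antigen presentation genes had mostly positive differences, with 27 of 31 above 0 and a median of 0.30. The class II chaperones HLA-DOA (1.17 ± 0.16, 2.24-fold, adjusted p = 0.00488) and HLA-DMB (0.76 ± 0.15, adjusted p = 0.0292) and the invariant chain CD74 (0.67 ± 0.15, adjusted p = 0.0447) rose and none fell. HLA-DOA read 11.03, 10.57 and 10.47 with sorafenib and 9.62, 9.43 and 9.53 in control. CD74 was called in 2 of the 12 fits without 1 array and HLA-DOA in all 12. Of 34 interferon-stimulated genes none passed (median -0.06).

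The killer-cell immunoglobulin-like receptors KIR2DL4 and KIR3DL2, known from natural killer and T cells, were both higher. KIR2DL4 read 12.45, 11.95 and 12.40 with sorafenib and 11.25, 10.59 and 10.92 in control (1.35 ± 0.20, 2.54-fold, adjusted p = 0.00677), and its 2 other probes differed by 1.17 and 1.00. KIR3DL2, detected on 2 control arrays, rose by 1.38 ± 0.32 (adjusted p = 0.0444), and the genes of this family are similar enough that their probes may share RNA. IL18R1, a receptor for interleukin-18, rose by 0.97 ± 0.21 (adjusted p = 0.0357), the 1 of 25 cytokine and chemokine receptors to pass, and IL22 was the 1 of 17 cytokines. ITGAL was the 1 of 17 integrin and adhesion genes to pass, and ALOX5AP the 1 of 7 leukotriene and prostaglandin genes.

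Some genes crossed the detection limit. Besides ITGAL, 5 genes passed that were detected on all 3 sorafenib arrays and on no control array. CBFA2T2, a corepressor of the ETO family, was at least 1.72-fold higher (adjusted p = 0.0431), the kinase gene LMTK2 at least 1.63-fold (adjusted p = 0.0498), the G protein-coupled estrogen receptor gene GPER1 at least 1.62-fold (adjusted p = 0.0498), the glutathione transferase GSTA4 at least 1.44-fold (adjusted p = 0.0453) and the kinesin gene KIF25 at least 1.40-fold (adjusted p = 0.0234). In the other direction H2AC8, the RNA-binding protein gene RBPMS (at least 1.68-fold lower, adjusted p = 0.0265) and TMEM37 (at least 1.12-fold lower, adjusted p = 0.032) were detected on all control arrays and on no sorafenib array. Among all described genes 26 were detected on 3 sorafenib arrays and 0 control arrays, and 31 the other way. Without background correction the calls of CBFA2T2, LMTK2, GPER1, GSTA4, KIF25 and TMEM37 were lost. GPER1 then differed by 0.32 and CBFA2T2 by 0.26, below the bounds given here. On addition of sorafenib to givinostat the 5 genes that rose besides ITGAL differed by 0.10 to 0.24.

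Transport, zinc finger and noncoding genes gave scattered calls. In 151 solute carriers 2 rose, SLC66A3 (0.78 ± 0.12, adjusted p = 0.00925) and the mitochondrial iron importer SLC25A37 (0.66 ± 0.15, adjusted p = 0.0405), and 2 fell, SLCO4A1 and SLC35B2 (-0.64 ± 0.16, adjusted p = 0.0498). Of 144 zinc finger genes named ZNF 3 rose, among them ZNF25 (0.97 ± 0.15, adjusted p = 0.00907), and 2 fell. Both shares were near those over all described genes. Among 44 named long noncoding RNA genes LINC01727 and SNHG32 rose, the second by 1.07 ± 0.20 (adjusted p = 0.021), and none fell (median 0.21). Of further leading genes SH3RF2, a ring finger protein, rose by 1.71 ± 0.32 (adjusted p = 0.0215), FAM24B by 1.42 ± 0.33 (adjusted p = 0.0463) and HSF2BP by 1.30 ± 0.26 (adjusted p = 0.028), and NARF fell by 1.07 ± 0.18 (adjusted p = 0.0135).

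Of 68 subunits of the respiratory chain and ATP synthase 1 fell, ATP5MF, by 0.57 ± 0.13 (adjusted p = 0.0463), with a median of -0.07. None of 69 mitochondrial ribosomal proteins passed (median -0.03), none of 26 enzymes of the TCA cycle and pyruvate metabolism (median -0.06), and none of 44 proteasome genes (median -0.06). Among 72 cytosolic ribosomal proteins 2 rose and 3 fell (median 0.06), and these genes have many processed pseudogenes, so that probes for RPL29 (-0.91 ± 0.14), RPS24 (-0.74 ± 0.12) and RPLP1 (0.78 ± 0.16) are uncertain as to the copy read. Another RPS24 probe differed by 0.05. Of 39 splicing factors 33 were negative (median -0.21) and 2 fell, HNRNPA1 by 1.37 ± 0.26 (adjusted p = 0.0256) and HNRNPH2 by 0.96 ± 0.18 (adjusted p = 0.0254).

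The addition of sorafenib to givinostat asks whether the same genes move when the histone deacetylase inhibitor is already present. This comparison, combination minus givinostat, shares no array with sorafenib minus control, though all 12 arrays share the estimate of spread. It called 132 of the 7797 genes (1.69%), 77 higher (0.988%) and 55 lower (0.705%), and 577 with the letter as a block (7.4%), although combination B and C did not follow their letters. Without givinostat B 14 genes passed. Of the 157 genes that rose with sorafenib alone 153 were higher in the combination than with givinostat (97.5%) and 43 of them passed, with a median difference of 0.52 against 0.84 with sorafenib alone. Of the 115 that fell 111 were lower in the combination (96.5%) and 23 passed, with a median of -0.48 against -0.78 with sorafenib alone. Over all 7797 genes 47.3% were higher. Across the 272 genes, which are not independent replicates, the 2 differences had a Pearson correlation of 0.884, and across all 7797 of 0.544. The 272 genes were chosen on the comparison of sorafenib with control.

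By gene, TRIB3 (2.04, adjusted p = 0.0055), ALOX5AP (1.66, adjusted p = 0.0027), CCPG1 (1.67, adjusted p = 0.0088), ADAP1, a regulator of ARF GTPases (1.81, adjusted p = 0.0028), and the noncoding RNA LINC01727 (1.84, adjusted p = 0.0027) rose on addition of sorafenib to givinostat. With sorafenib alone ADAP1 and LINC01727 had risen by 1.27 ± 0.20 and 1.26 ± 0.19. H1-2 (-1.60, adjusted p = 0.014), RASL11B (-1.37, adjusted p = 0.0055), CISH (-1.33, adjusted p = 0.023), INSIG1 (-1.18, adjusted p = 0.017), HK2 (-1.05, adjusted p = 0.033), FASN (-0.93, adjusted p = 0.0033) and PGK1 (-0.88, adjusted p = 0.014) fell. DDIT3, which had not passed with sorafenib alone, differed by 2.06 (adjusted p = 0.014). The median of the ATF4-CHOP list was 0.79 with 4 of 13 higher, that of glycolysis -0.46 with 3 of 21 lower, and that of the hypoxia list -0.35 with 1 of 25 lower.

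Some genes differed in sign between the 2 settings, and their difference was tested by the interaction. ADNP, detected on 1 control array, rose by 1.42 with sorafenib alone (adjusted p = 0.0364) and differed by -0.86 between combination and givinostat (adjusted p = 0.15), and its other probe differed by -0.12 with sorafenib alone. SYVN1 differed by -0.35 on addition to givinostat and TMEM37 by 0.21. None of the 7797 genes passed limma's interaction test (0%), while 452 had an unadjusted p under 0.05 (5.8%), so no gene is shown here to respond differently to sorafenib with and without givinostat.

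**Figure D5:**
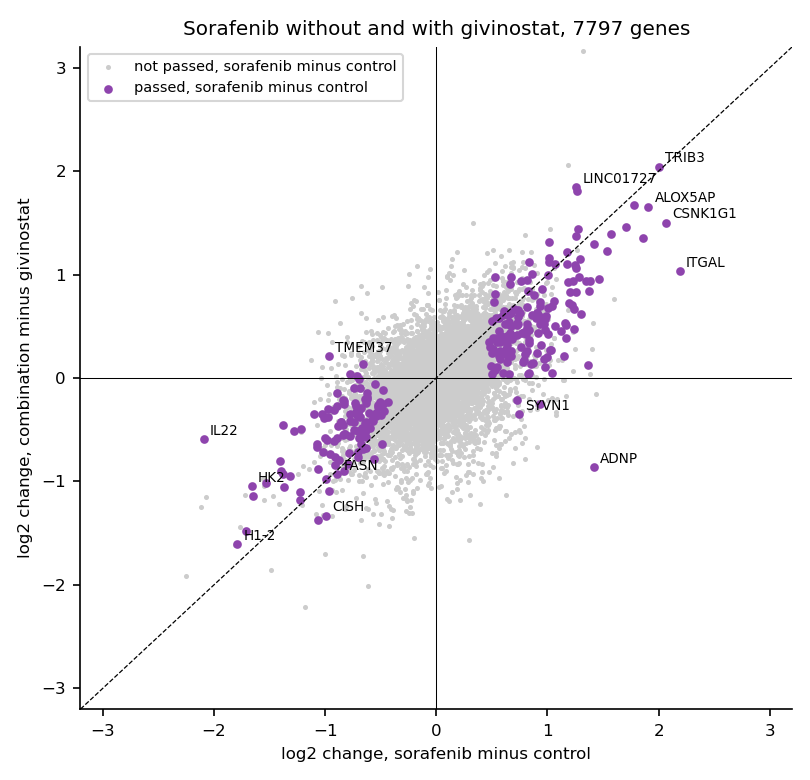
Log2 change on addition of sorafenib to givinostat (vertical) against that of sorafenib minus control (horizontal) for the 7797 genes; purple points passed in sorafenib minus control and the dashed line marks equal change. Most purple points share their sign in both settings and many lie nearer to 0 on the vertical axis; ADNP and SYVN1 lie below 0 after rising with sorafenib alone.

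Set directly against givinostat alone, sorafenib changed 737 of the 7797 genes (9.45%), 402 higher (5.16%) and 335 lower (4.3%), and 1381 with the letter as a block (17.7%). This comparison uses the same sorafenib arrays as the one with control, so its values are given side by side and not as further support. IL22 differed by -2.44 from givinostat and by -2.09 from control, TRIB3 by 2.21 and 2.00, and H1-2 by -2.38 and -1.79. STAT4 differed by -0.09 from givinostat and by 1.17 from control, TNFRSF21 by -0.31 and 1.28, and PRKCH by -0.18 and -1.54.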

How the data were processed

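Per the file headers, the authors deposited 1 average bead intensity per probe and array, neither background subtracted nor normalized, beside a detection score. That deposited score is a fraction from 0 to 1. Although its heading calls it a detection p-value, it climbs with brightness on each of the 12 arrays, and 1 minus the score was therefore taken as the detection p. An alternative used the intensity values of the deposited series matrix, whose array medians are nearly equal. BeadStudio is named, without a version, per the submitters' processing notes.

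Raw intensities of 48803 probes went through the neqc steps of limma 3.58.1 in R 4.3.3 (background correction with an offset of 16, quantile normalization, log2). A probe was kept when every array of at least 1 of the 4 groups had a detection p under 0.05, and the brightest probe with 1 gene symbol gave 8079 genes. Names came from the platform annotation, matched to RefSeq gene identifiers. One coefficient per group was fitted over all 12 arrays with lmFit and eBayes, and calls were made at a Benjamini-Hochberg adjusted p under 0.05. Where no array of the lower group detected a gene, its level there was set to the detection limit and the fold is given as "at least". Such a bound holds for this background correction and normalization only. The number of arrays limits the precision.

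The genes named are the 20 largest rises and the 20 largest falls whose groups did not overlap, up to 6 called members per list, all measured members of 4 lists (target kinases, ATF4-CHOP, glycolysis, cholesterol), called genes detected on 3 arrays of one group and 0 of the other, the 10 largest differences in each direction on addition to givinostat, and ATF4, DDIT3, MYC, MCL1, CDKN1A, CDKN1B, CCND2, CCND3, BCL2L1, TNFRSF8, HIF1A, STAT3, STAT6, DUSP5 and JUNB. The members and the 73 gene lists were chosen with earlier results of these data known, and symbol patterns of some lists were narrowed after a first look. Same-letter deviations from the group means correlated at 0.177 to 0.408 in all 9 array pairs of control, givinostat and sorafenib, so the letters were taken to pair them; the labels do not state it. With the combination arrays the 9 same-letter values ran between -0.139 and 0.363, and combination B and C did not follow their letters, yet the block includes them.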

Additional observations from a re-analysis of the deposited data

How the results depend on the processing

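The 272 genes called for sorafenib minus control became 480 without background correction and 479 on the series matrix values. They became 65 without the filter on dim probes, 24 (11 higher and 13 lower, 45.8% higher against 57.7%) with arrays scaled to their medians, and 35 using only the arrays of the groups compared. The replicate block gave 704, or 710 without the combination arrays (chosen after seeing the data), and 0 when only the 6 arrays compared were used, where limma had 1955 genes at an unadjusted p under 0.05. Leaving out 1 array gave 69 to 259 calls: 125, 85 and 69 without control A, B and C, 120, 97 and 71 without sorafenib A, B and C, 166 and 179 without givinostat B and C, and 142 without combination C. Of the 272 genes 1 changed its sign, with the mean of all probes of a gene, and none did in the other settings.

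For combination minus givinostat 132 genes were called. The count was 363 without background correction and on the series matrix values, 267 when all 12 arrays had to detect the probe at p under 0.01, 208 with detection on all 6 sorafenib and control arrays, 33 without the filter, and 52 with median scaling, which moved the median of all genes to -0.39. It was 5 on the arrays compared, 577 with the replicate block, 0 with the replicate block on those arrays alone, and 14 to 135 when 1 array was left out. Sorafenib minus givinostat called 737 genes, and 111 with median scaling, 260 without the filter, 387 on the arrays compared, 1381 with the replicate block, 1473 with it and without the combination arrays, and 256 to 755 when 1 array was left out. The interaction stayed at 0 in each setting. Dim probes limit folds to lower bounds.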
